A study of Mus musculus with 6 samples.

Results

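Klf5 and 9 other Krüppel-like factors (Klf2, Klf3, Klf4, Klf6, Klf7, Klf9, Klf10, Klf13 and Klf15) were followed through RNA-seq libraries of mouse biliary epithelial cells, the lining of the intrahepatic bile ducts. The 10 genes were chosen by symbol from the 24404 genes of the table, and all 10 had enough reads to be tested among the 13490 genes whose mean reached 10 normalised counts. There were 3 Klf5 LKO libraries (genotype Alfp-CreTg/+;Klf5flox/flox) and 3 control libraries (Alfp-Cre+/+;Klf5flox/flox, which carried the floxed gene and no Cre transgene). All mice were adult C57BL/6, and both groups had been injured for 1 week with DDC, a porphyrin-forming compound that damages bile ducts. Alfp-Cre is driven by albumin and alpha-fetoprotein regulatory sequences, so it acts in the liver's epithelial lineages, and other cells of the preparation would still hold the intact floxed gene. Cre itself came with the deletion, and the effects of both cannot be told apart. Whether each library stands for its own animal or for a pool is not said in the labels, and the p-values therefore reflect only how far these libraries vary, which may be technical.

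Krüppel-like factors are transcription factors that share a pattern of 3 zinc fingers at the C terminus and bind GC-rich and CACCC sequences, as the related SP factors do. Outside the zinc fingers they differ: Klf5, Klf2, Klf4, Klf6 and Klf7 are mostly activators that work with p300-type acetyltransferases, Klf3 recruits the corepressor CtBP, and Klf9, Klf10 and Klf13 recruit Sin3A. Klf5 is best known for driving division in the proliferating compartment of gut, skin and other epithelia, where Klf4 is typically found in the differentiated cells.

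The upstream sequences of 5 of the factors are shown because family members can bind the motifs they hold: Klf4, Klf6, Klf7 and Klf9 are those with higher means in Klf5 LKO that had an unadjusted p below 0.05 or no overlap between groups, and Klf3, which had similar means in both groups, holds the most motif matches of the 5. Each line gives the 250 bases before the RefSeq start of the gene, 5′ to 3′ on the gene's strand (GRCm38.p6). The gene positions given below come from another annotation, GENCODE. By those positions the Klf7 window lies wholly inside the gene, and the Klf3 and Klf6 windows end inside theirs. Capitals mark the CACCC box (CACCC, or GGGTG on the other strand) and the GC box (GGGCGG or CCGCCC), which may overlap each other. The windows are chr4:55532476-55532725, minus strand for Klf4, chr13:5861239-5861488, plus strand for Klf6, chr1:64121390-64121639, minus strand for Klf7, chr19:23140976-23141225, plus strand for Klf9 and chr5:64803271-64803520, plus strand for Klf3.
Klf4: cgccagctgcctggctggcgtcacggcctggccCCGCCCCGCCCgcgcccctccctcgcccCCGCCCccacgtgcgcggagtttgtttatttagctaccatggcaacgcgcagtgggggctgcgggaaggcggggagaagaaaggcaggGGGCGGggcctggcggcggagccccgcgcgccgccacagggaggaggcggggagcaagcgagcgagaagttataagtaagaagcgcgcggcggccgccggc
Klf6: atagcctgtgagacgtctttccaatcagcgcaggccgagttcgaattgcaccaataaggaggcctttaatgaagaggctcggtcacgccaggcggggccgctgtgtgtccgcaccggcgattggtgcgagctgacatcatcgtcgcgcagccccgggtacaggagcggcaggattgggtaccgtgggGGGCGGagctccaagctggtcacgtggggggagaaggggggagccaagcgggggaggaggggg
Klf7: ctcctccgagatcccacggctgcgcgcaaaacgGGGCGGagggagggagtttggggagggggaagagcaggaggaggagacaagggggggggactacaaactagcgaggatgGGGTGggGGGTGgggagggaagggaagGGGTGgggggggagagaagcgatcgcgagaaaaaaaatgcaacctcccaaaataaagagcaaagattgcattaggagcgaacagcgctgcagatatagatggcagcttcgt
Klf9: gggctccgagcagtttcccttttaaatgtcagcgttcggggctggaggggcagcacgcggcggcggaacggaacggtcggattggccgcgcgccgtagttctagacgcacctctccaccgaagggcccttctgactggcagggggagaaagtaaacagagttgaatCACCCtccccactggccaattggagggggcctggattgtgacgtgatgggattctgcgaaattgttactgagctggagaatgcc
Klf3: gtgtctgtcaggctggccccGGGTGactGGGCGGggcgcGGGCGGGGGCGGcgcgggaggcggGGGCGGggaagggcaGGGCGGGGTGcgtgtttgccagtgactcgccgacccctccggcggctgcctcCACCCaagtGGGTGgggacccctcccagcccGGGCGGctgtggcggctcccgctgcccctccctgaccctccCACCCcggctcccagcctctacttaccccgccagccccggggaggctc
Klf3 held 5 CACCC boxes and 6 GC boxes, Klf7 held 3 and 1, and Klf4 held 0 and 4. Klf6 had a single GC box and Klf9 a single CACCC box. Among 32841 RefSeq promoter windows of the same length, 52.0% held at least 1 CACCC box and 32.7% at least 1 GC box. At least 3 were held by 6.92% and 8.47%. The share of G and C was 78.4% for Klf3, 74.0% for Klf4, 64.8% for Klf6, 59.6% for Klf9 and 59.2% for Klf7. The median over all RefSeq windows was 52.4%. RefSeq windows were matched for 8 of the 10 factors. The matches describe letters in these windows and do not show that any factor was bound there.

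Klf5, the targeted gene (chromosome 14, 99298691 to 99315036, plus strand, mm10), was the only one of the 10 factors whose difference passed the test, and it fell to 52.4% of the control level. Its normalised count, the number of reads divided by a size factor for each library, was 2056, 2018 and 2316 in control 1, 2 and 3 and 977, 1192 and 1183 in Klf5 LKO 1, 2 and 3. The highest Klf5 LKO library lay well below the lowest control library. The means were 2130.0 ± 162 in control and 1117 ± 122 in Klf5 LKO (SD, n = 3 each), a 1.91-fold difference. On the log2(value + 1) scale Klf5 fell by 0.93 (SE 0.14, 95% interval -1.24 to -0.63, limma adjusted p = 0.0103). Across all genes tested, 0.652% passed in either direction and 0.489% were called lower. DESeq2 on the same reads gave a log2 fold change of -0.93 with adjusted p = 3.30e-07. The authors' deposited table lists a log2 fold change of -0.83 with adjusted p = 2.08e-07, and 2.41% of the genes given an adjusted p there lie below 0.05. The call ended without control 1, 2 or 3 (limma adjusted p = 0.0625, 0.0681 and 0.0540). With each of the 6 libraries removed in turn, its log2 fold change ranged from -0.98 to -0.84.

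The Klf5 reads that remained in Klf5 LKO need not come from intact transcript. The annotated gene has 4 exons after merging of its transcripts, 5201 bases in all, and the deposited value is 1 number for the whole gene, which also takes in any exon that Cre leaves in place. Which exons are floxed is not given in the sources used here. In bulk libraries fewer cells with the transcript and less transcript per cell cannot be told apart.

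**Figure D1:**
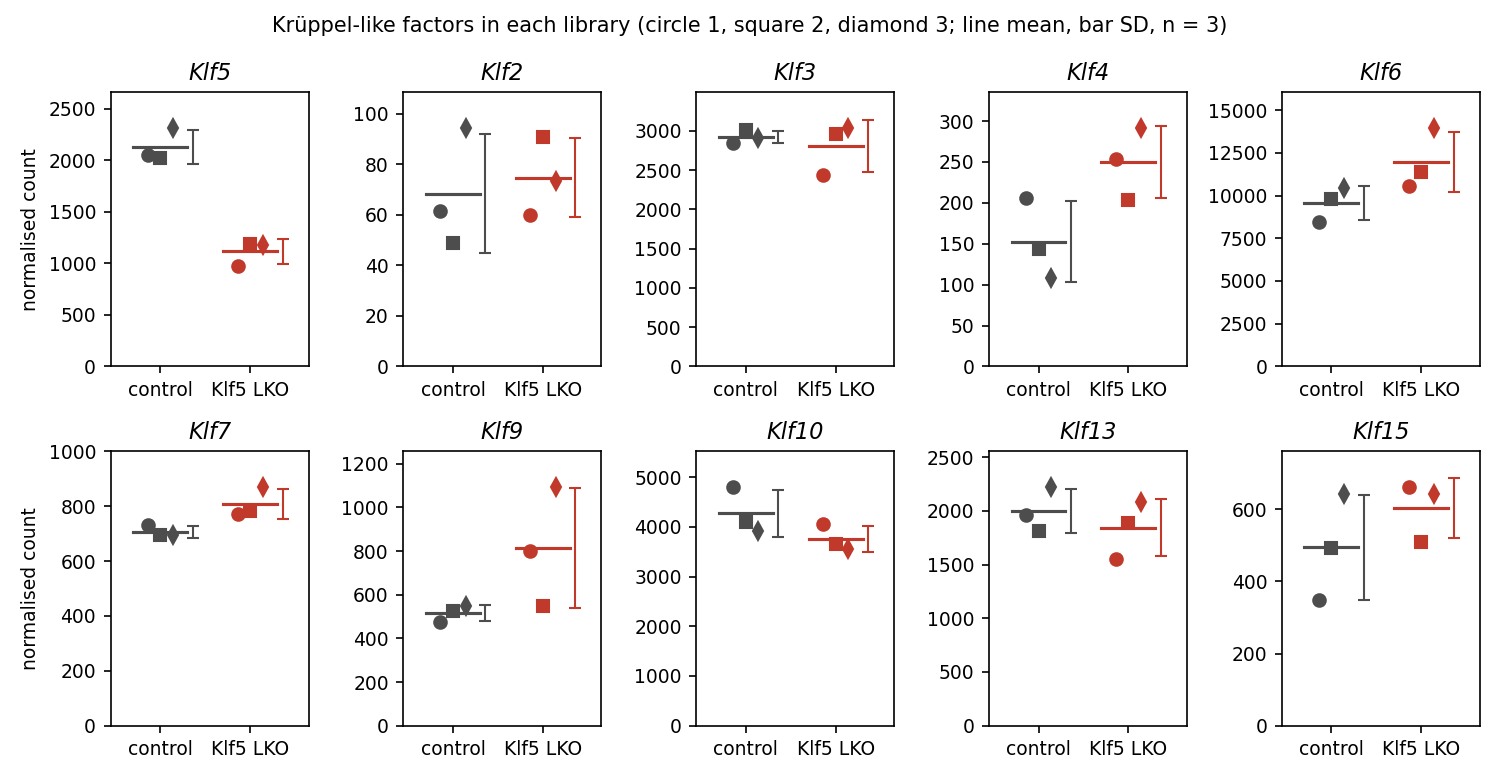
Normalised count (y axis, linear from 0) of each of the 10 factors in the control (grey) and Klf5 LKO (red) libraries; each point is 1 library, with the mean as a line and the SD as a bar. Klf5, Klf6 and Klf7 are the panels where the groups do not overlap, and for Klf9 Klf5 LKO 2 lies among the control libraries.

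The preparations held transcripts of biliary epithelial cells, the cells that the labels name. All 14 biliary markers were measured, with Spp1 between 288036 and 456086 normalised counts and the keratin Krt18 between 75371 and 126665. The markers summed to between 619697 and 667652 in Klf5 LKO and between 642095 and 788362 in control, sums led by Spp1. The mean of log2(value + 1) over the 14 was 13.75, 13.89 and 13.80 in Klf5 LKO 1, 2 and 3. It was 14.05, 14.02 and 13.93 in control 1, 2 and 3, above every Klf5 LKO library. Of the 14, 10 had lower and 4 higher means in Klf5 LKO. The groups did not overlap for 3 lower and 1 higher (Krt18), against 7.88% and 7.72% of all tested genes. Total reads per library were between 11726934 and 24784167, with the fewest in control 2, and Spearman correlations between libraries lay between 0.967 and 0.981. Among markers of other cells, the leukocyte sum varied most in proportion. The 16 leukocyte markers, none at 0 in every library, summed to between 5962 and 27959 in control and between 9231 and 21083 in Klf5 LKO, mostly Cd74. Of the 10 of them tested, 9 had lower means in Klf5 LKO, the median log2 fold change was -1.29, and 0 passed by limma, edgeR or DESeq2 or had an unadjusted p below 0.05. The 12 endothelial markers summed to between 437 and 823 and between 424 and 498. The 12 hepatocyte markers, mostly Trf, summed to between 43435 and 62352 in control and between 58484 and 79681 in Klf5 LKO. The 2 most abundant went opposite ways: Trf averaged 38354 in control and 52325 in Klf5 LKO, and Alb 8188 and 7240. Of the 9 hepatocyte markers tested, 6 had higher and 3 lower means in Klf5 LKO. Of the 12 stellate and fibroblast markers, Col1a2, Col3a1, Lrat and Des had no read in any library, and the sum, mostly Rgs5, was between 7099 and 7564 in control and between 9514 and 11874 in Klf5 LKO. The 6 mesothelial markers, led by Gpm6a and Msln, summed to between 2833 and 3027 in control and between 1825 and 2045 in Klf5 LKO. These 2 went opposite ways: Msln averaged 1242 in control and 44.6 in Klf5 LKO, and Gpm6a 1686 and 1878. Wt1, Lrrn4 and Upk1b were too low to test. By limma, 1 biliary marker (Tspan8), 1 hepatocyte marker (Apob) and 1 mesothelial marker (Msln) fell and 0 markers rose. Limma called 0.489% of all tested genes lower and 0.163% higher. DESeq2 called Tspan8, Apob and also the keratins Krt7 and Krt19 lower and Rgs5 higher (adjusted p = 0.000905, 0.00192 and 0.000167 for the last 3), and did not call Msln (adjusted p = 0.106; 0.558 in the authors' deposited table). Msln was called lower by edgeR and limma-voom (adjusted p = 0.0229 and 0.0316). Over all genes tested, DESeq2, edgeR and limma-voom called 2.48%, 0.623% and 0.549% in either direction. The part of these other cells in the levels of the 10 factors was not tested.

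Among the activators, Klf6 was the most abundant factor of the family, and its groups did not overlap. Klf6, a factor induced early in injured liver and in many stressed cells (chromosome 13, 5861482 to 5870394, plus strand), had 8437, 9824 and 10424 normalised counts in control, against 10578, 11389.8 and 13966 in Klf5 LKO. The lowest Klf5 LKO library was only just above the highest control library. The means were 9562 ± 1019 and 11978 ± 1769 (SD, n = 3 each), 25.3% higher in Klf5 LKO, with a log2 fold change of 0.32 (95% interval 0.02 to 0.62) that did not pass (limma adjusted p = 0.428, unadjusted p = 0.0389). Without Klf5 LKO 3, the highest library, the log2 fold change was 0.20.

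Klf4, the factor most often set against Klf5 in epithelia (chromosome 4, 55527143 to 55532466, minus strand), was a low transcript here. It had 206, 144 and 108 normalised counts in control, against 254, 203 and 292 in Klf5 LKO. Control 1 and Klf5 LKO 2 held nearly the same level, so the groups overlapped at that point. The means were 153 ± 49.7 and 249.7 ± 44.3 (SD, n = 3 each), and the log2 fold change of 0.74 was the highest of the 10 but did not pass (95% interval 0.08 to 1.40, limma adjusted p = 0.393). It ranged from 0.52 without control 3 to 0.98 without control 1.

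Klf7, a factor best known from neurons (chromosome 1, 64029447 to 64122282, minus strand), had 732, 694 and 695 in control, against 772, 782 and 869.9 in Klf5 LKO. Every Klf5 LKO library was above every control library, by a small margin. Its log2 fold change was 0.19 (95% interval -0.14 to 0.52, limma adjusted p = 0.704). A noncoding gene on the opposite strand overlaps 3196 exon bases of Klf7, and no strand setting is named for the counting, so reads of the 2 genes cannot be told apart.

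Klf2, which keeps endothelium and lymphocytes quiescent (chromosome 8, 72319033 to 72321656, plus strand), was the lowest of the 10. It had 61.6, 49.0 and 94.5 normalised counts in control, against 60.0, 90.9 and 73.5 in Klf5 LKO, from between 31 and 122 reads a library. The groups spanned nearly the same range. The log2 fold change was 0.16 with a wide interval of -0.75 to 1.07 (limma adjusted p = 0.926). A difference anywhere in that interval could not be told from none with these libraries. The highest control value of Klf2 fell in control 3, the library with the highest endothelial sum (823) and the lowest leukocyte sum (5962). The order was not the same elsewhere: control 2 had the next highest endothelial sum (542) and the lowest Klf2. Klf5 LKO 2, with Klf2 at 90.9, had an endothelial sum of 493. Control 1 and Klf5 LKO 1 were low in both, with endothelial sums of 437 and 424. The part of these cells in the Klf2 level was not tested.

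None of the repressor-type factors passed, with log2 fold changes from -0.18 for Klf10 to 0.60 for Klf9. Klf3, which recruits CtBP (chromosome 5, 64803388 to 64832901, plus strand), had 2845, 3006 and 2911 normalised counts in control, against 2431, 2956 and 3038 in Klf5 LKO. Klf5 LKO 1 was lowest and the other libraries lay close together. The log2 fold change was -0.06, with a 95% interval of -0.34 to 0.21 (limma adjusted p = 0.900). Of its partner genes, Ctbp1 had a log2 fold change of -0.07 and Ctbp2 of -0.24 (limma adjusted p = 0.887 and 0.579).

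Klf9, a Sin3A-binding factor induced by glucocorticoid and thyroid hormone (chromosome 19, 23141226 to 23168134, plus strand), had 476, 526 and 549.7 normalised counts in control, against 802, 548 and 1093 in Klf5 LKO. The control libraries agreed closely, while Klf5 LKO 2 lay at the control level and the other Klf5 LKO libraries lay above every control library. The means were 517 ± 37.5 and 814 ± 273 (SD, n = 3 each), with a log2 fold change of 0.60 (95% interval 0.10 to 1.10) and the lowest adjusted p of the 9 other factors (limma adjusted p = 0.354). Leaving out Klf5 LKO 3 gave a log2 fold change of 0.36, and leaving out Klf5 LKO 2 gave 0.86.

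Klf10, the TGF-beta inducible early gene (chromosome 15, 38291463 to 38300706, minus strand), had 4800.3, 4098 and 3909.6 in control, against 4052, 3650.3 and 3560.5 in Klf5 LKO. Klf5 LKO 1 lay inside the control range and the other Klf5 LKO libraries lay below it. The log2 fold change was -0.18 (95% interval -0.45 to 0.09, limma adjusted p = 0.649). Klf13, which regulates the chemokine Ccl5 in T cells (chromosome 7, 63886351 to 63938915, minus strand), had 1963, 1814 and 2222 in control, against 1556, 1891 and 2080.5 in Klf5 LKO. Its groups overlapped, with a log2 fold change of -0.12 (95% interval -0.44 to 0.20, limma adjusted p = 0.822). The partner gene Sin3a averaged 774 in control and 757 in Klf5 LKO (limma adjusted p = 0.955).

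Klf15, a regulator of fasting metabolism in liver and muscle (chromosome 6, 90462576 to 90475238, plus strand), had 349, 492 and 641 normalised counts in control, against 661, 508 and 642 in Klf5 LKO. Control 3 matched the high Klf5 LKO libraries, and control 1 was the lowest. The log2 fold change was 0.32 (95% interval -0.18 to 0.83, limma adjusted p = 0.666), and 0.10 without control 1.

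**Figure D2:**
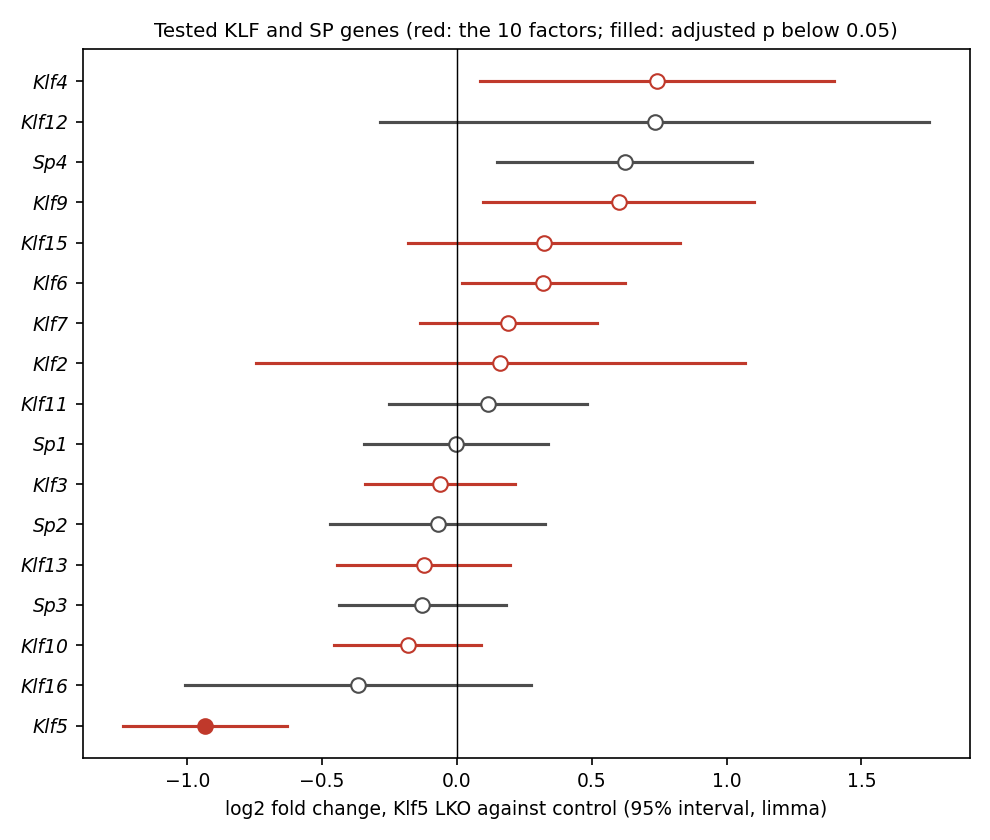
Log2 fold change of Klf5 LKO against control (x axis) with the 95% interval from limma for the 17 tested KLF and SP genes, sorted by size; red marks the 10 factors, dark grey the others, and a filled point an adjusted p below 0.05. Klf5 at -0.93 is the only filled point, and the intervals of Klf4, Klf6, Klf9 and Sp4 also leave out 0 before adjustment.

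Over the 10 factors, Klf5 fell, 0 rose and 9 did not pass. Of the 10, 6 had higher and 4, Klf5 included, lower means in Klf5 LKO, with a median log2 fold change of 0.18, against -0.01 over all genes tested. The groups did not overlap for 3 of them, Klf5 lower and Klf6 and Klf7 higher, where 15.6% of all tested genes showed no overlap (7.88% lower and 7.72% higher in Klf5 LKO). Besides Klf5, 3 factors had an unadjusted p below 0.05 (Klf4, Klf6 and Klf9), which 10.9% of all tested genes had. The edgeR quasi-likelihood test, limma-voom and DESeq2 on the recovered reads called Klf5 and none of the other 9, where they called 0.623%, 0.549% and 2.48% of genes.

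**Figure D3:**
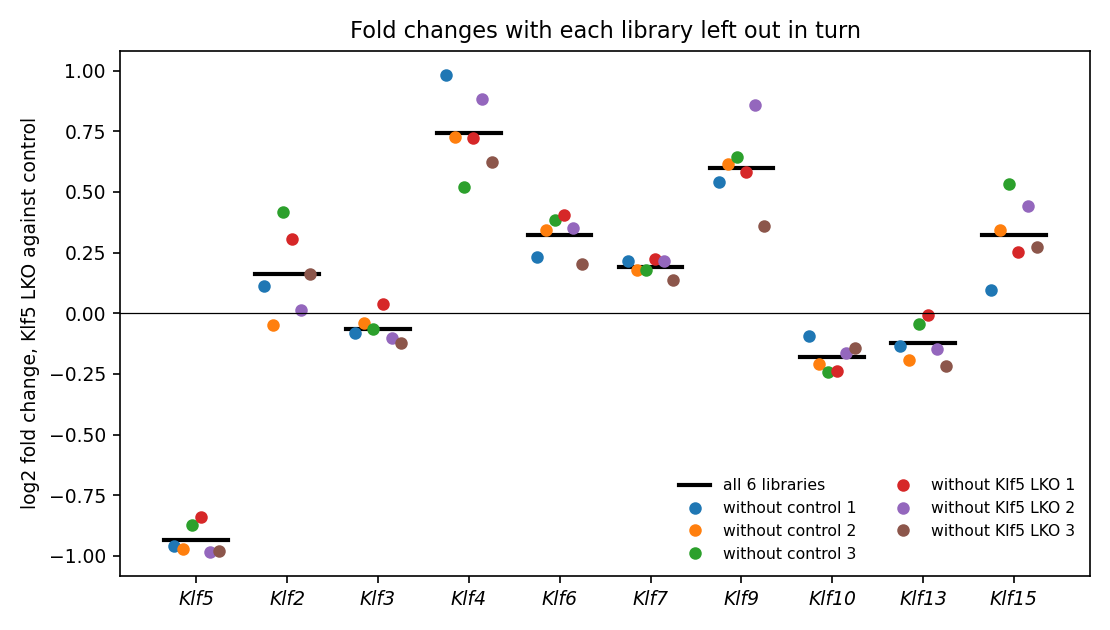
Log2 fold change of each factor (y axis) over all 6 libraries (black line) and with each library left out in turn (coloured points). Klf5 stays between -0.98 and -0.84, Klf4, Klf6, Klf7, Klf9 and Klf15 stay above 0, Klf10 and Klf13 stay below 0, and Klf2 and Klf3 cross 0.

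Levels of different genes were compared per length, as normalised counts per kb of merged exon. In control the order was Klf6 (2178 ± 232), Klf10 (1022 ± 112), Klf5 (409.5 ± 31.1), Klf13 (266 ± 27.4), Klf3 (259.8 ± 7.19), Klf15 (177 ± 52.3), Klf9 (107 ± 7.78), Klf7 (86.9 ± 2.67), Klf4 (from 35.3 to 67.6) and Klf2 (37.0 ± 12.7; SD, n = 3 libraries each). Neighbours in this order did not overlap, except Klf13 with Klf3 and Klf4 with Klf2. In Klf5 LKO, Klf5 had 215 ± 23.4 per kb and no longer stood apart: its libraries overlapped with those of Klf15 above it (216 ± 29.9) and Klf9 below it (169 ± 56.7). Among the 13 tested Krüppel-like genes Klf5 had rank 3 in each control library, and rank 7, 6 and 7 in Klf5 LKO 1, 2 and 3. Merged exons count every annotated transcript end, used or not, and among the 10 Klf3 has the most, 11243 bases.

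The summed level of the 13 tested Krüppel-like genes was 4978 ± 205 per kb in control and 5330.1 ± 490 in Klf5 LKO (SD, n = 3 each). The groups overlapped, with sums between 4769 and 5178 in control and between 4982 and 5890 in Klf5 LKO. Klf5 made up 8.22% ± 0.411 of this sum in control and 4.04% ± 0.384 in Klf5 LKO. Klf6 made up 43.7% ± 2.97 and 51.0% ± 2.83. Without Klf5, the sum was 4568 ± 181 in control, between 4374 and 4733, and 5115 ± 477 in Klf5 LKO, between 4794 and 5663. The groups did not overlap once Klf5, the gene that fell, was left out. Of all single genes tested, 15.6% showed no overlap. Without Klf5 and Klf6, the remaining 11 genes summed to 2391 ± 53.5 in control and 2387 ± 93.6 in Klf5 LKO, closer than the spread between libraries.

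**Figure D4:**
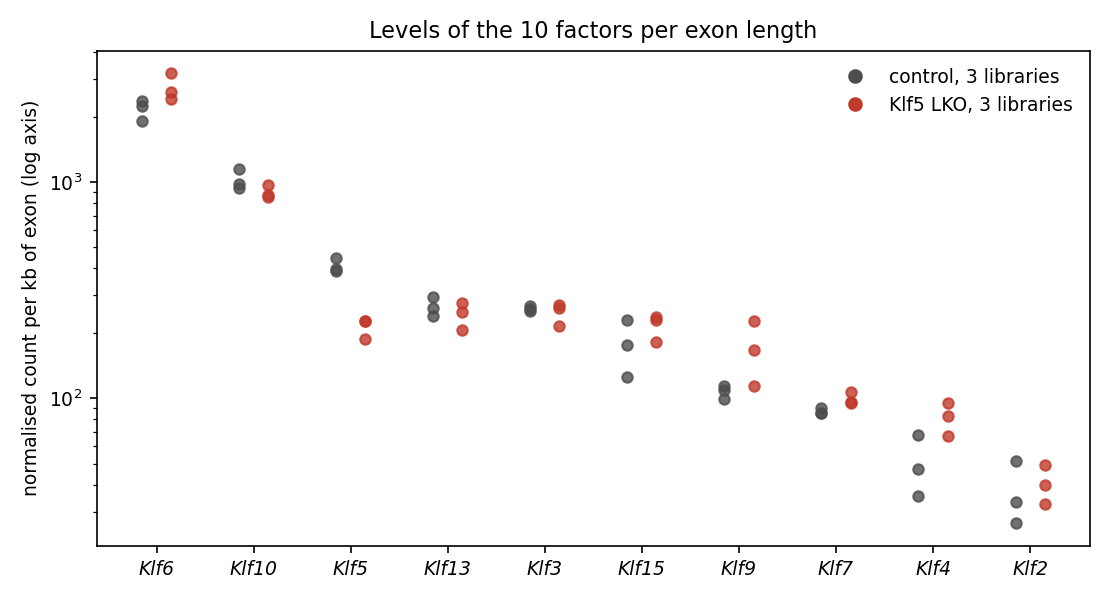
Normalised count per kb of merged exon (log axis) of the 10 factors in each control (grey) and Klf5 LKO (red) library, in the order of the control means. Klf5 stands between Klf10 and Klf13 in control and overlaps with Klf15 and Klf9 in Klf5 LKO.

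None of the other KLF and SP genes tested passed by limma, edgeR or DESeq2. Of 17 Krüppel-like genes and 9 SP genes in the table, 13 and 4 were tested. Klf11, a relative of Klf10, averaged 1102 in control and 1183 in Klf5 LKO (limma adjusted p = 0.860). Sp1, a ubiquitous GC-box activator, averaged 1548 and 1539, and Sp3, which binds the same boxes, 1826 and 1684 (limma adjusted p = 0.995 and 0.806). Klf12, Klf16 and Sp2 had log2 fold changes of 0.73, -0.37 and -0.07 (limma adjusted p = 0.623, 0.708 and 0.926). Sp4, named after its values were seen, had 311, 311 and 283 in control, against 479, 365 and 573 in Klf5 LKO. Its groups did not overlap, and its log2 fold change of 0.62 (SE 0.22) did not pass (limma adjusted p = 0.295).

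The other 9 family genes were too low to test. Klf14, Klf17, Sp7, Sp8 and Sp9 had no read in any library, which allows up to 3 reads in each, a normalised count of between 2.24 and 4.74. Sp5, a target of Wnt signalling, was named after its values were seen. It had 26, 18 and 4 reads in Klf5 LKO and 0 in each control library. With each control library set at 3 reads, the Klf5 LKO mean was 3.70-fold the control mean. This ratio is not a lower bound, because the Klf5 LKO reads carry counting error too. Klf5 LKO 3 (4.26) lay below the 3-read limit of control 2 (4.74). Klf1, the erythroid factor, had 21, 29 and 4 reads in Klf5 LKO and 2, 0 and 5 in control, and Klf5 LKO 3 lay inside the control range. Klf8 had reads only in Klf5 LKO 3 (14) and control 1 (6), and Sp6 only in Klf5 LKO 3 (15), control 1 (17) and control 3 (8).

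Genes for proteins that work with the family or set the stability of Klf5 protein were measured in full. Of 16 cofactor genes, 0 rose, 0 fell and 16 did not pass by limma, edgeR or DESeq2. Their median log2 fold change was -0.07. The groups did not overlap for 3 with higher and 1 with lower values in Klf5 LKO, against 7.72% and 7.88% of all tested genes. An unadjusted p below 0.05 was found for 2 of the 16, against 10.9% of all tested genes. These 2 were the corepressor Ncor1, with means of 3550.3 and 4662 (limma adjusted p = 0.287), and the acetyltransferase Kat2b, with 1082 and 1366 (limma adjusted p = 0.452), higher in every Klf5 LKO library than in any control library. The acetyltransferase Ep300 had 1313 and 1072 (limma adjusted p = 0.527). Of 12 genes for ubiquitin and SUMO pathway proteins, 0 passed by limma, edgeR or DESeq2 and 0 had an unadjusted p below 0.05, with a median log2 fold change of 0.03. Bap1, a deubiquitinase reported to stabilise Klf5 protein, had means of 1549 and 1880.1, and Smurf2, a ubiquitin ligase reported to destabilise it, 1222 and 1023 (limma adjusted p = 0.526 and 0.561).

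Of 25 genes described as Klf5 targets in other cells, 24 were tested, of which 1 fell, 0 rose and 23 did not pass by limma. There were 12 higher and 12 lower means in Klf5 LKO, with a median log2 fold change of 0.02. An unadjusted p below 0.05 was found for 9 of the 24, against 10.9% of all tested genes. The groups did not overlap for 4 with higher and 5 with lower values in Klf5 LKO, against 7.72% and 7.88% of all tested genes. DESeq2 called 2, Ccnb1 lower and Myc higher, and edgeR called Ccnb1 alone. Over all genes tested, limma, edgeR and DESeq2 called 0.652%, 0.623% and 2.48%. The mitotic cyclin Ccnb1 fell from 708 ± 183 to 289 ± 64.9 (SD, n = 3 each), by 1.28 on the log2 scale (SE 0.24, limma adjusted p = 0.0322). It had 657, 910.3 and 556 in control, against 354, 224 and 289 in Klf5 LKO, with no overlap. Its call ended without control 1, 2 or 3 and without Klf5 LKO 2 or 3 (limma adjusted p from 0.0522 to 0.198), and with no filter on low values (limma adjusted p = 0.0552).

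Some Krüppel-like factors, among them Klf4, Klf6 and Klf10, are themselves induced within minutes by stress and cell dissociation, so immediate early genes were read beside them. Of 20 such genes, 0 passed by limma or edgeR and 4 by DESeq2 (Jun, Egr1, Ier2 and Myc). Over all genes tested, these tests called 0.652%, 0.623% and 2.48%. An unadjusted p below 0.05 was found for 7 of the 20, against 10.9% of all tested genes. The groups did not overlap for 6, all higher in Klf5 LKO, against 7.72% of all tested genes in that direction. Higher means in Klf5 LKO were found for 16 of the 20, with a median log2 fold change of 0.32. Egr1, a zinc-finger factor induced by growth signals and stress, had 19648, 17431 and 21185 normalised counts in control, against 29215, 23671 and 31785 in Klf5 LKO (limma adjusted p = 0.151, DESeq2 adjusted p = 0.00455). Myc, a growth-promoting factor, had means of 1298 and 1935 (limma adjusted p = 0.162, DESeq2 adjusted p = 0.0488). The 20 genes summed to 125131, 119608 and 146035 in control, against 159772, 132079.5 and 197193 in Klf5 LKO. Klf5 LKO 3 held the highest sum and also the highest Klf3, Klf4, Klf6, Klf7 and Klf9. Klf10 went the other way, with its lowest level of the 6 libraries in Klf5 LKO 3 (3560.5) and its highest in control 1. Control 2 held the lowest sum, but the mean of log2(value + 1) over the 20 genes was lowest in Klf5 LKO 2. It was 10.82 there, against 10.90 in control 2. The part of the immediate early response in the levels of these factors was not tested.

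Glucocorticoid-responsive genes were read beside Klf9 and Klf15, which the hormone can induce. Of 8, 0 passed by limma or edgeR, and 2 passed by DESeq2 in opposite directions. Over all genes tested, these tests called 0.652%, 0.623% and 2.48%. An unadjusted p below 0.05 was found for 3 of the 8, against 10.9% of all tested genes. The median log2 fold change over the 8 was 0.23. The chaperone partner Fkbp5 had means of 1744 and 1163 (DESeq2 adjusted p = 0.0438) and the kinase Sgk1 3607 and 5307 (DESeq2 adjusted p = 0.0374), with limma adjusted p = 0.176 and 0.210. Klf5 LKO 3, the library with the most Klf9, had the highest sum of the 8 genes (56843, against between 32028 and 44821 in the others). The order was not the same elsewhere: Klf5 LKO 1, second in Klf9, had a sum of 38562, below the 44821 of control 3, and Klf15 was highest in Klf5 LKO 1. Dusp1, the most abundant of the 8, is also among the 20 immediate early genes. The part of these genes in the Klf9 and Klf15 levels was not tested.

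**Figure D5:**
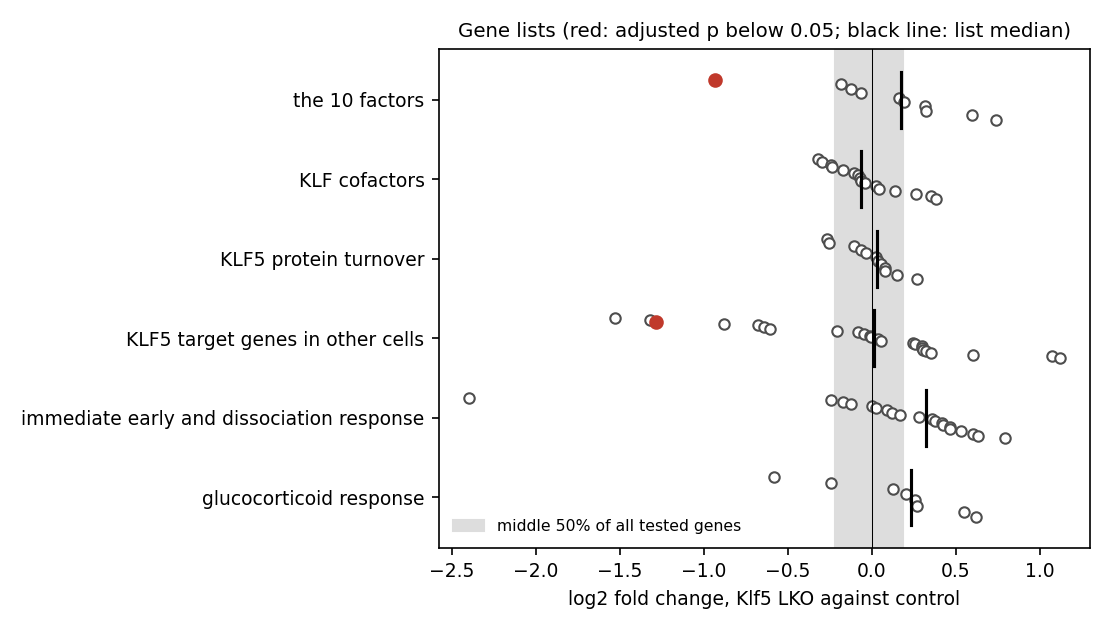
Log2 fold change of Klf5 LKO against control (x axis) for each gene of the 10 factors and of the 5 related lists, with red for an adjusted p below 0.05, a black line for the list median and a grey band for the middle 50% of all tested genes. Klf5 and Ccnb1 are the red points, and the medians of the immediate early genes, 0.32, and of the glucocorticoid-responsive genes, 0.23, lie right of the band, which ends at 0.19; the point at -2.40 is Egr3, a gene with few reads, named after its values were seen.

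The genes whose levels followed Klf5 most closely over the 6 libraries were Rab11fip5, Zfp248, Slc35e4, Fam20a and Phf2, with Pearson r of 0.999, 0.998, 0.994, 0.992 and 0.991 of log2 values among 10390 genes that averaged 100 or more. Within groups, as deviations from the group means, r was between 0.939 and 0.996. The lowest r belonged to Trib3, Pcbp4 and Ak1, at -0.988, -0.988 and -0.987. These values describe 6 libraries that share a group difference, for genes picked as the extremes of 10390. None of the 8 passed the test between groups: Fam20a had 251 ± 41.1 in control and 89.9 ± 21.0 in Klf5 LKO (SD, n = 3 each, limma adjusted p = 0.0568), and Rab11fip5 1368 ± 52.1 and 1032 ± 56.1 (limma adjusted p = 0.266).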

How the data were processed

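RNA-seq of biliary epithelial cells was compared between 3 Klf5 LKO and 3 control libraries, grouped by their titles. Per the labels' protocols, the input was 4 ng of total RNA, amplified in 10 cycles before and 7 cycles during library PCR. TopHat, Bowtie2, DESeq2 and mm10 are named in the submitters' processing notes. No source used here gives the counter, annotation or strand setting. For each gene and library the authors deposited a signal, the reads over a size factor, and 100% of values were whole multiples of the value of 1 read (tolerance 0.001). The authors' deposited table of the comparison, per the file headers, holds log2 fold changes, a Wald score and p-values.

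limma 3.58.1 (lmFit, eBayes with trend, R 4.3.3) was run on log2(value + 1), a pseudocount of 1 that understates changes of low genes, over 13490 genes that averaged 10 or more, two-sided, with Benjamini-Hochberg adjustment over all of them and a threshold of 0.05. edgeR 4.0.16, DESeq2 1.42.0 and limma-voom on the recovered reads, other scalings, filters and pseudocounts, and leaving out each library were alternatives. The scripts were tested on simulated data. Exon lengths and positions come from GENCODE M21 (GRCm38), which matched 23350 of 24404 symbols; merged exons were used. Promoter sequences are from RefSeq (GRCm38.p6). The limit for a gene without reads, 3 reads, covers counting error only. Named genes are the 10 factors; the 3 most abundant of the other KLF and SP genes; up to 4 called genes of each list, or the 2 with the lowest p; Ep300, Ctbp1, Ctbp2 and Sin3a, named outside this rule for their textbook partnership with the factors after their values were seen, as were markers and listed genes named as called by a test; the 2 most abundant markers of each cell type; and the 5 genes most and 3 least correlated with Klf5. The factors and lists were chosen with earlier results of these data known. The activator and repressor classes are textbook groupings.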

Additional observations from a re-analysis of the deposited data

How the results depend on the processing

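All log2 fold changes of Klf5 stayed negative under the 10 other settings and the 6 in which a library was left out. With each library left out in turn, Klf5 ranged from -0.98 to -0.84, the number of the 10 factors called was between 0 and 1 (0 without control 1, 2 or 3), and the number of genes called ranged from 14 without control 2 to 105 without Klf5 LKO 1, against 88 over all 6 libraries. It was 24 without control 1, 53 without control 3 and 49 without Klf5 LKO 3; the cause was not tested, beyond there being fewer samples. DESeq2 called 335 genes, of which 119 (35.5%) were higher in Klf5 LKO, against 22 of the 88. Without control 2 and without Klf5 LKO 2, 7.14% and 13.9% of the calls were higher. Directions of 4 genes near 0 changed: Klf2 ranged from -0.0491 (without control 2) to 0.42, Klf3 from -0.12 to 0.0374 (without Klf5 LKO 1), Klf11 from -0.0404 (without control 3) to 0.22 and Sp1 from -0.13 to 0.10 when a library was left out, and Sp1 was 0.0101 with limma-voom. No setting called any of the other 9 factors. The replicate numbers are shared by both groups, but libraries with the same number did not deviate together throughout (correlations of deviations 0.185, -0.012 and 0.106 for numbers 1, 2 and 3, where the highest for Klf5 LKO 2 was 0.138 with control 3), so they were not treated as pairs. With the replicate number as a block, Klf5 had a log2 fold change of -0.93 (adjusted p = 0.0163), 1 of the 10 factors was called, and 110 genes were called in all. Few reads limit the 9 family genes not tested.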
